A study of Mus musculus with 24 samples.

Results

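The genes described here encode the pore-forming subunits of mouse potassium channels. They were chosen by name: a gene symbol that starts with Kcn, followed by one of the letters a, b, c, d, h, j, k, m, n, q, s or t and a digit, counted 10 or more times in each mouse of 1 or more of the 4 groups. Of the listed symbols 70 matched this pattern, and 57 of them passed the count filter, out of 16209 genes that passed it in all. Of the 57, 55 are protein coding, and Kcnq1ot1 and Kcnd3os are noncoding RNAs whose names match because they run antisense to Kcnq1 and Kcnd3. No symbol matched with the letter m, so Kcnma1, the pore of the BK channel, is not among them and is given with the partner genes. The reads came from hippocampus punches, 1 mm wide, of 24 female C57BL/6 mice that had gone through behavioural tests at about 6 months of age. There were 6 mice in each of 4 groups: Fkbp5lox/lox control, Fkbp5lox/lox ELS, Fkbp5Nex control and Fkbp5Nex ELS. All 24 mice carry floxed Fkbp5. In Fkbp5Nex mice a Cre recombinase under control of the Nex (Neurod6) locus removes it from glutamatergic forebrain neurons, from before birth and largely without the dentate gyrus, and other cells keep the gene. ELS stands for early life stress, a dam and her litter kept with little bedding and nesting material from postnatal day 2 to 9, whereas control litters had standard housing with the regular amount of nesting material. Each library is 1 mouse, so SDs below measure the spread between mice. SEs and p-values come from fits with 5 surrogate variables, which are estimated hidden factors, and measure the spread left once these are removed. The median SE of the members for genotype was 0.060 with them and 0.094 without. Rearing was assigned by dam and litter, but the sample labels name no litter. The tests therefore treat mice as independent, although some may be littermates.

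Potassium channels let K+ leave or enter the cell along its gradient and so set the resting potential, shape and end the action potential and limit repetitive firing. Voltage-gated (Kv) subunits assemble as tetramers within a class. Kv1 channels sit in axons and near nodes, Kv2 and Kv4 channels mostly on cell bodies and dendrites, Kv3 channels serve fast firing, Kv7 channels carry the M-current, and the EAG class includes the ERG channels. SK channels and the Slack and Slick channels open with intracellular calcium and sodium, respectively. Inward rectifiers (Kir) hold the membrane near the potassium potential, couple to G proteins (GIRK), sense ATP (KATP) or take up potassium into glia, and two-pore-domain (K2P) channels pass background current.

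What these proteins share is the selectivity filter, a stretch of the pore that reads threonine or serine, any residue, glycine, tyrosine or phenylalanine, glycine. At the level of codons this was searched, in frame and on the coding strand only, as ACN, TCN, AGC or AGT, then NNN, then GGN, then TAC, TAT, TTC or TTT, then GGN. All 55 protein-coding members held it at least once, compared with 575 of 21764 genes (2.642%) with a coding sequence in GENCODE vM21. Of the 9 K2P members, 7 held it at 2 places, as the presence of 2 pore domains in 1 protein would have it, while Kcnk1 and Kcnk6 held it once. The 45-base stretches around it are shown for the members on which the results below turn and for the most abundant member of several classes. The 15 bases of the signature are in capitals, and each line is read 5′ to 3′ on the coding strand of GRCm38.
Kcna2 (Kv1, chr3:107105209-107105253, + strand, exon 3 of 3): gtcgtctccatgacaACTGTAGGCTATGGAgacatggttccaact
Kcnc2 (Kv3, chr10:112456214-112456258, + strand, exon 3 of 5): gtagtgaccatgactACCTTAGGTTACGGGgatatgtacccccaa
Kcnd2 (Kv4, chr6:21217391-21714156, + strand, joined over an intron): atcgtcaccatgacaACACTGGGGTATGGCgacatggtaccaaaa
Kcnh3 (EAG, chr15:99232914-99232958, + strand, exon 8 of 15): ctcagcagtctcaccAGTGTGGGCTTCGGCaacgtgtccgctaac
Kcnt1 (Slack, chr2:25894352-25894396, + strand, exon 11 of 32): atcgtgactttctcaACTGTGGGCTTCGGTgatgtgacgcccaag
Kcnt2 (Slick, chr1:140425263-140425307, + strand, exon 9 of 28): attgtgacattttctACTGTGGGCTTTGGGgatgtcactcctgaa
Kcnj3 (GIRK1, chr2:55437612-55437656, + strand, exon 2 of 4): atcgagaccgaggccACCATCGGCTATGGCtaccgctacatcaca
Kcnj4 (Kir2.3, chr15:79485352-79485396, - strand, exon 2 of 2): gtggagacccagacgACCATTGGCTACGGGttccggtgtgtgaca
Kcnk1 (K2P, chr8:125995793-126025034, + strand, joined over an intron): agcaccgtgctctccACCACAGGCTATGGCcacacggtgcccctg
Kcnt1 and Kcnt2, the sodium-activated pair, were identical at 34 of the 45 bases. The inward rectifiers Kcnj3 and Kcnj4 shared 31 bases, Kcna2 and Kcnc2 shared 28, and Kcna2 and Kcnj3, from the voltage-gated and the inward rectifier superfamilies, shared 22. The tyrosine of most members shown was a phenylalanine (TTC or TTT) in Kcnh3, Kcnt1 and Kcnt2.

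Total counts ran from 18347283 to 26555623 per library (median 21385946.5). Fkbp5, the deleted gene, stood at 53.5 ± 5.9 CPM (counts scaled to library size; SD, n = 6) in Fkbp5lox/lox control and 59.4 ± 2.3 in Fkbp5lox/lox ELS mice, but at 14.1 ± 6.4 in Fkbp5Nex control and 13.9 ± 5.0 in Fkbp5Nex ELS mice, as the labels have it. The markers of hippocampal neurons were present in every mouse, but the punches were uneven. The summed CPM of the 8 dentate gyrus markers ran from 243 to 1122 per mouse and that of the 6 CA1 pyramidal markers from 102 to 846. That of the 6 oligodendrocyte markers ran from 1439 to 6464 and that of the 9 tested thalamus markers from 106 to 366. The 6 tested choroid plexus markers summed to 25.6 to 4658 CPM per mouse. There were 4 mice far from the others on several marker lists (Fkbp5Nex control 12 and 42, Fkbp5lox/lox control 44 and Fkbp5lox/lox ELS 8), and results are also given without them. In such bulk tissue, fewer cells of a type and less RNA per cell cannot be told apart.

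Per length of transcript, the Kv3 and Kv7 classes had the highest levels. Levels of different genes are compared as TPM (counts divided by exon length and scaled to the same sum in each mouse). The members together made up 1742 ± 89 TPM (SD, n = 24 mice). The 4 Kv3 genes summed to 308 ± 27 TPM and the 5 Kv7 genes to 286 ± 41, ahead of the 6 Kv1 genes at 191 ± 22, the 9 K2P genes at 173 ± 15 and the 3 GIRK genes at 164 ± 21. The potassium uptake rectifiers Kcnj10 and Kcnj16 summed to 139 ± 14 TPM and the 3 Kv4 genes to 135 ± 9. The mean ± SD of Kv3 and Kv7 overlapped, as did that of K2P and GIRK, and that of Kv4 and the uptake rectifiers. Differences between classes within the same mouse were not tested. Lower classes were the EAG genes with 98.3 ± 6.6 TPM, the Kir2 genes with 73.8 ± 20.04, the silent KvS subunits with 50.2 ± 4.2 and the SK genes with 45.8 ± 3.8 TPM. Slack and Slick summed to 39.3 ± 6.1 TPM and the KATP pores to 14.1 ± 1.9.

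Kcnq5, of the Kv7 class, averaged 75.5 TPM and ranged widely, from 31.3 to 123 TPM. Kcnk1 (TWIK-1, a background channel also found in astrocytes) stood at 107 TPM and Kcnj10 (Kir4.1, the main potassium uptake channel of astrocytes) at 106 TPM, with ranges of 85.3 to 133 and 87.3 to 135 that covered each other. Of the Kv3 genes, which serve fast-spiking cells, Kcnc2 averaged 87.7 TPM. The GIRK subunits Kcnj3 and Kcnj9 averaged 82.0 and 70.3 TPM. Kcnd2 and Kcnd3, the pores of the A-type current, averaged 71.6 and 54.2 TPM. The axonal Kv1 genes Kcna2 and Kcna1 averaged 66.9 and 58.5 TPM.

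Other classes had their leading genes further down. Kcnj4, a strong inward rectifier, averaged 59.1 TPM and Kcnj2 of the same class 5.81, which is 1 example of how unequal members of a class were. Kcnj16, the partner of Kcnj10, averaged 33.3 TPM. The EAG genes Kcnh3 and Kcnh1 averaged 37.8 and 28.4, the silent subunits Kcns2 and Kcns1, which act only in company of Kv2 subunits, 23.98 and 14.3, and Kcnk2, the mechanically gated TREK-1, 22.0 TPM. Kcnt2 and Kcnt1 were level at 20.2 and 19.2 TPM, the SK genes Kcnn2 and Kcnn1 averaged 19.9 and 15.8, Kcnb2 of the Kv2 class 5.55, and the KATP pores Kcnj11 and Kcnj8 10.2 and 3.84 TPM. At the bottom were Kcna5 with 1.31 TPM, Kcnq1ot1 with 0.853 and Kcnq1 with 0.798. Kcnd3os averaged 5.498 TPM. The total stood at 1703 ± 83 TPM in Fkbp5lox/lox control, 1792 ± 82 in Fkbp5lox/lox ELS, 1727 ± 132 in Fkbp5Nex control and 1745 ± 26 in Fkbp5Nex ELS mice (SD, n = 6 each). The sum of Kcnj10 and Kcnj16 was 132 ± 5.6 TPM in Fkbp5lox/lox control and 151 ± 3.6 in Fkbp5Nex control mice, against 138 ± 20 and 134 ± 14 in the respective ELS groups. Sums were not tested.

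**Figure D1:**
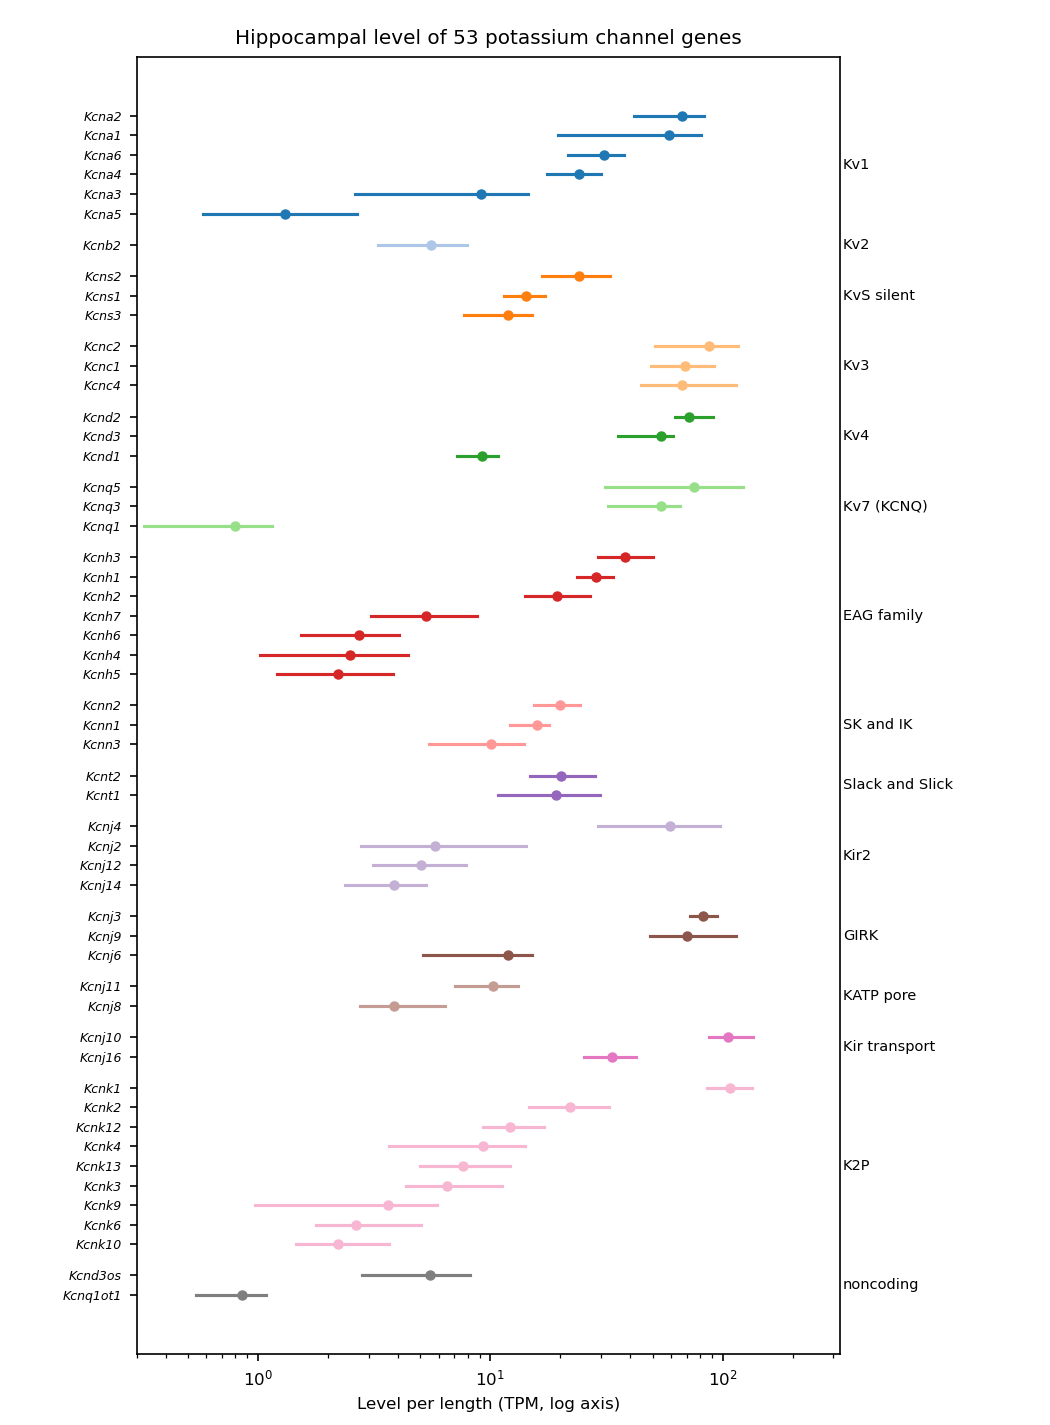
Level of 53 members in TPM on a log axis, by channel class: points are means over 24 mice and lines run from the lowest to the highest mouse. Kcnk1 at 107 TPM and Kcnj10 at 106 lead those drawn, and the widest lines belong to weakly expressed genes such as Kcna5 and Kcnk9 and to Kcna1, Kcnq5 and Kcnj2.

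Members also differed in how much they varied between mice. The median within-group SD of log2 CPM was 0.25 over the 57 members and 0.18 over the 16209 genes, and the biological coefficient of variation that remained once surrogate variables (estimated hidden factors) were in the fit had a median of 0.083 and 0.076. Kcnj3 was the steadiest member, 1.28-fold higher in the highest than in the lowest mouse, next to Kcnh1 with 1.32-fold. The widest ratios between the highest and the lowest mouse were those of Kcnk9 (5.45-fold), Kcnj2 (5.15-fold), Kcna3 (4.97-fold), Kcna5 (4.60-fold), Kcnh4 (4.35-fold) and Kcnq5 (3.92-fold). Of these only Kcnq5 is abundant.

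The filter left out 13 matching genes. Just inside it lay Kcnq1, with 8 to 28 counts per mouse, and Kcna5 with 9 to 55, each past 10 counts throughout in 3 groups. Just outside lay Kcnk5 with 0 to 16 counts, Kcnh8 with 2 to 16, Kcnj5 (the cardiac GIRK) with 3 to 24 and Kcnn4 (the IK channel of blood cells and microglia) with 1 to 24. Kcnk7 and Kcna7 did not exceed 11 and 10 counts in any mouse, and Kcnk15, Kcnk18, Kcna10, Kcnj15, Kcnj1 and Kcnk16 did not exceed 5. Kcnj13, which encodes the Kir7.1 channel of the choroid plexus, stood out among them with 0 to 202 counts. It had 10 or more counts in 12 mice and 6 or fewer in the other 12. The mouse with 202 counts, Fkbp5lox/lox control 74, also had the most counts of Ttr, the transthyretin gene of the choroid plexus, at 95942. In the 5 mice without a Kcnj13 count, Ttr ran from 16 to 322 counts. Fkbp5Nex control 12 had 10 counts of Kcnj13 but 5 of Ttr.

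The members lie on 17 chromosomes, and 5 neighbouring pairs lie within 200000 bases of each other. Kcnj9 and Kcnj10 are 11891 bases apart on chromosome 1 on opposite strands, and yet the former is a neuronal GIRK subunit and the latter astrocytic. Kcna3 and Kcna2 are neighbours on chromosome 3, Kcna5, Kcna1 and Kcna6 form a row on chromosome 6, where Kcna1 averaged 58.5 and Kcna5 1.31 TPM, and Kcnj16 and Kcnj2 lie 38195 bases apart on chromosome 11. Exons of 20 members overlap those of another annotated gene, and the setting for strand in counting was not stated, so their values are less certain. Among them Kcnq1 (464 counts over all mice) overlaps Kcnq1ot1 (11353), Kcnk3 (3670) overlaps Gm9899 (3378), Kcnh3 (31000) overlaps Mcrs1 (25007), Kcnh7 (11445) overlaps Gca (6961), and Kcnk4 (5864) overlaps Catsperz (2521) on the same strand. Of the genes below, Kcnt2 shares exon bases with a transcript of only 46 counts, and Kcnt1, Kcnj4, Kcna2 and Kcnh4 with none.

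The comparison of Fkbp5Nex with Fkbp5lox/lox mice over both rearing conditions asks which genes differ when glutamatergic neurons lack Fkbp5. No member passed a false discovery rate (FDR) of 0.02 in edgeR's quasi-likelihood test, where 19 of 16209 genes (0.117%) did. At an unadjusted p under 0.05 there were 10 members (17.5%), 7 higher and 3 lower in Fkbp5Nex mice, compared with 11.5% of all genes. The differences were small. The 95% interval lay within a 1.5-fold change either way for 55 of the 57 members and for 15200 of the 16209 genes. The median log2 fold change was 0.03, compared with -0.001 over all genes.

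Kcnt2, which encodes the sodium-activated channel Slick, came closest to the threshold. It stood at 35.8 to 52.5 CPM with a median of 44.0 in Fkbp5lox/lox control mice and at 35.7 to 43.9 with a median of 38.3 in Fkbp5lox/lox ELS mice. In Fkbp5Nex mice it stood at 29.5 to 38.8 with a median of 37.5 (control) and 33.2 to 37.9 with a median of 36.7 (ELS). No Fkbp5Nex mouse thus exceeded 38.8 CPM, but 5 of the 12 Fkbp5lox/lox mice also lay below that value, so the ranges overlapped. The log2 fold change was -0.20 (SE 0.04, adjusted p = 0.0364 in edgeR with Benjamini-Hochberg adjustment), and it was -0.20 within control and -0.20 within ELS mice. Without surrogate variables these were -0.29 and -0.12. DESeq2 with the same covariates called it (adjusted p = 0.00311), as the only member among the 70 of 16209 genes it called, against 19 in edgeR. So did edgeR without Fkbp5Nex control mouse 42 (adjusted p = 0.0173). Without the 4 mice far from the others it was -0.12 (adjusted p = 0.661 in edgeR). Its correlation with any of 11 marker scores lay between -0.37 (microglia) and 0.19 (ventral hippocampus).

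Kcnj4, the Kir2.3 rectifier, followed. Its lowest, median and highest values were 26.6, 34.5 and 51.7 CPM in Fkbp5lox/lox control, 28.8, 34.6 and 55.9 in Fkbp5lox/lox ELS, 17.1, 27.8 and 53.9 in Fkbp5Nex control, and 23.8, 31.0 and 47.8 in Fkbp5Nex ELS mice. The ranges overlapped nearly in full. In the fit with surrogate variables the log2 fold change was -0.22 (SE 0.06, adjusted p = 0.133 in edgeR). Dentate gyrus markers moved with it: 3 of the 8 were called for genotype, and their mean score was 0.39 ± 0.43 in Fkbp5lox/lox control, 0.58 ± 1.02 in Fkbp5lox/lox ELS, -0.57 ± 0.999 in Fkbp5Nex control and -0.41 ± 0.47 in Fkbp5Nex ELS mice. Summed, the dentate gyrus markers ran from 384 to 645, 330 to 1122, 243 to 793 and 273 to 561 CPM in these groups. Their part in the Kcnj4 difference was not tested.

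Kcna2, the main Kv1 subunit of axons, came next. Medians were 217 CPM in Fkbp5lox/lox control and 217 in Fkbp5lox/lox ELS mice, compared with 228 in Fkbp5Nex control and 232 in Fkbp5Nex ELS mice, and the Fkbp5Nex control mice alone ran from 149 to 269. The log2 fold change was 0.08 (SE 0.02, adjusted p = 0.161 in edgeR), and without surrogate variables it was 0.05 (SE 0.07). Of the 7 further members at an unadjusted p under 0.05, those given here, named after their values were seen, were Kcnc1, Kcnt1, Kcnk6, Kcna3 and Kcnq5, with log2 fold changes of 0.12 to 0.27, and Kcnk1 with -0.09. By class, the 4 Kv3 genes had positive and the 3 silent KvS genes negative estimates, and of 9 K2P genes 8 were positive. None of these classes held more than 2 genes at an unadjusted p under 0.05. The fit without surrogate variables put 2 members under that p, Kcnt2 at -0.20 and Kcnd2 at -0.14, and 6.63% of all genes.

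**Figure D2:**
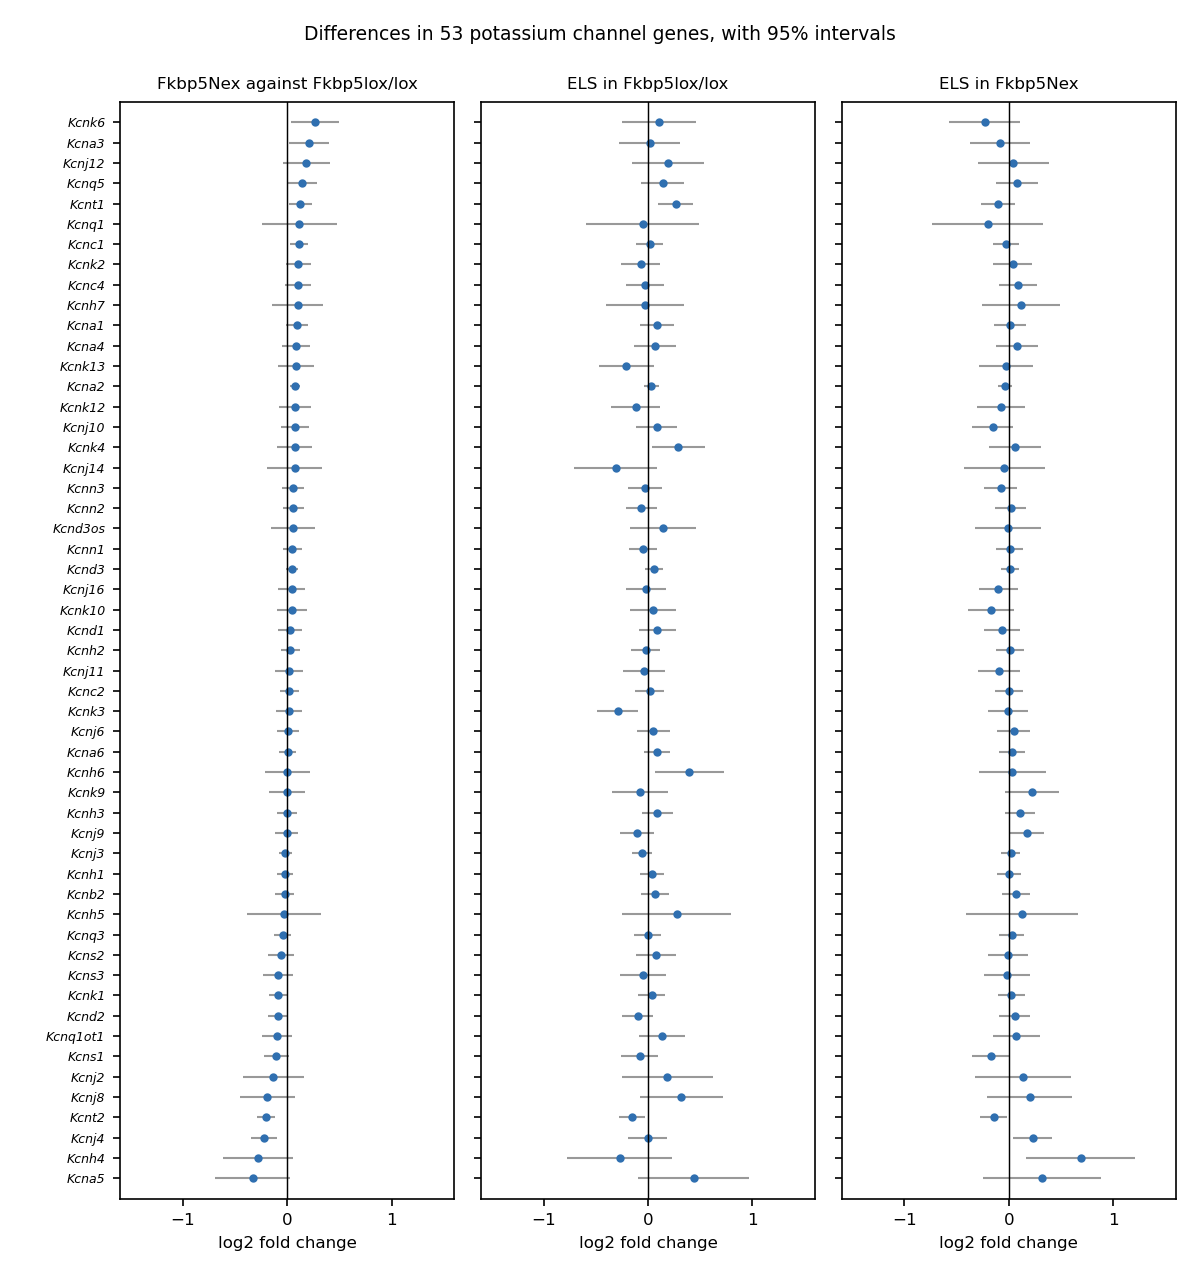
Log2 fold change of 53 members with its 95% interval for genotype (Fkbp5Nex against Fkbp5lox/lox, left), ELS in Fkbp5lox/lox (middle) and ELS in Fkbp5Nex mice (right), in the order of the genotype values. Most points lie close to the zero line, and the wide intervals belong to weakly expressed genes such as Kcna5, Kcnh4, Kcnh5 and Kcnq1.

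Taken within control-reared mice, the genotypes differed in no member at an FDR of 0.02 in edgeR, with 8 genes (0.0494%) called in all. The unadjusted p was under 0.05 for 10 members (17.5%) and 8.69% of all genes. Kcnt1, which encodes the sodium-activated channel Slack, had the smallest p. It stood at 30.3 to 66.7 CPM with a median of 41.3 in Fkbp5lox/lox control and at 38.3 to 64.4 with a median of 52.1 in Fkbp5Nex control mice. Only mouse 44 of the Fkbp5lox/lox control group exceeded 43.6 CPM. The log2 fold change was 0.31 (SE 0.07, adjusted p = 0.0957 in edgeR, and 0.0198 in DESeq2, where Kcnt1 was the only member among 53 of 16209 genes called). It was 0.15 without Fkbp5Nex control mouse 12 and 0.15 without Fkbp5lox/lox control mouse 74. Without the 4 mice far from the others the estimate turned to -0.040, and the score of ventral hippocampus markers, with which Kcnt1 moved, was 0.04 ± 0.74 and -0.01 ± 0.71 in the 2 groups. Its near relative Kcnt2 pointed the other way, with -0.20 (SE 0.06).

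Kcnj4 gave -0.34 (SE 0.09, adjusted p = 0.140 in edgeR) and Kcna2 0.11 (SE 0.03, adjusted p = 0.218) in control-reared mice. Without surrogate variables these were -0.12 and 0.018, and without Fkbp5lox/lox control mouse 28 Kcna2 gave 0.066. Kcnj10, the astrocyte potassium channel, was the 1 member whose values did not overlap between the genotypes, where 0.16% of all genes did not. Its CPM ran from 141 to 158 with a median of 145 in Fkbp5lox/lox control and from 161 to 192 with a median of 174 in Fkbp5Nex control mice. In ELS mice the ranges overlapped, with 128 to 203 CPM in Fkbp5lox/lox and 129 to 181 in Fkbp5Nex mice. The log2 fold change among control mice was 0.19 (SE 0.09, adjusted p = 0.559 in edgeR), and this gene is named after its values were seen. Astrocyte markers stood at a score of 0.00 ± 0.57 in Fkbp5lox/lox control and 0.52 ± 1.32 in Fkbp5Nex control mice, and none of the 6 was called for genotype. Over all mice r between Kcnj10 and the astrocyte score was -0.01 within groups. The part of astrocyte content in the Kcnj10 difference was not tested.

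In ELS mice the genotypes differed in no member at an FDR of 0.02 in edgeR, or in DESeq2, and in 2 genes (0.0123%) in all. Only 1 member, Kcnt2, had an unadjusted p under 0.05, or 1.75% of members against 6.59% of all genes. Its log2 fold change was -0.20 (SE 0.06, adjusted p = 0.591 in edgeR). Kcnc4, a Kv3 subunit, and Kcnk2, the TREK-1 channel, gave 0.16 (SE 0.09) each. Without surrogate variables these were 0.021 and 0.036, and they were as low as 0.087 without Fkbp5lox/lox ELS mouse 68 and 0.055 without mouse 72 of that group. No member's values were free of overlap between these groups, compared with 0.173% of all genes.

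ELS against control rearing, over both genotypes, asks what early stress leaves in the adult hippocampus. No gene passed an FDR of 0.02 in edgeR (0 of 16209, 0%), and so no member did, nor did any in DESeq2. The unadjusted p was under 0.05 for 2 members (3.51%), compared with 3.56% of all genes. The 95% interval lay within a 1.5-fold change for 54 of 57 members and for 15036 of 16209 genes. Kcnt2 again had the smallest p, with a log2 fold change of -0.15 (SE 0.04, adjusted p = 0.9995 in edgeR), before Kcnk3, the acid-sensitive background channel TASK-1, with -0.15 (SE 0.07), and the silent subunit Kcns1 with -0.13 (SE 0.06). For Kcns1 the medians were 10.6, 11.4, 10.7 and 10.1 CPM in Fkbp5lox/lox control, Fkbp5lox/lox ELS, Fkbp5Nex control and Fkbp5Nex ELS mice. Without surrogate variables these 3 estimates were -0.06, -0.04 and -0.003.

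In Fkbp5lox/lox mice, no member was called for ELS at an FDR of 0.02 in edgeR (0% of all genes) or in DESeq2. There were 5 members (8.77%) with an unadjusted p under 0.05, compared with 4.86% of all genes. Kcnt1 had a median of 41.3 CPM (30.3 to 66.7) in control and 47.8 (33.6 to 73.2) in ELS mice and a log2 fold change of 0.26 (SE 0.08, adjusted p = 0.954 in edgeR). Kcnk3 had medians of 6.36 CPM (5.55 to 12.1) in control and 6.26 (4.81 to 8.43) in ELS mice and a log2 fold change of -0.29 (SE 0.09). Kcnh6, an ERG channel with only 36 to 79 counts per mouse, had medians of 2.44 and 2.78 CPM and a log2 fold change of 0.40 (SE 0.16). Without surrogate variables these estimates were 0.18 for Kcnt1, -0.19 for Kcnk3 and 0.21 for Kcnh6, and Kcnk3 gave -0.15 without control mouse 30. No member's values were free of overlap, compared with 0.0925% of all genes. Thalamus markers stood at a score of -0.56 ± 0.30 in control and 0.59 ± 0.96 in ELS mice of this genotype. CA1 pyramidal markers stood at 0.13 ± 0.47 and -0.47 ± 1.32. The part of these scores in the ELS estimates was not tested.

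In Fkbp5Nex mice, no member was called for ELS in edgeR (0% of all genes) or in DESeq2, and 4 members (7.02%) had an unadjusted p under 0.05, compared with 2.80% of all genes. Kcnh4, an EAG-class channel with 22 to 127 counts per mouse, had medians of 1.87 CPM (1.081 to 4.59) in control and 2.45 (1.46 to 4.28) in ELS mice and a log2 fold change of 0.69 (SE 0.25, adjusted p = 0.9996 in edgeR), or 0.28 without surrogate variables. For Kcnj4 it was 0.23 (SE 0.09) and for Kcnt2 -0.14 (SE 0.06). Both of the latter signs depended on the surrogate variables, for without them Kcnj4 gave -0.025 and Kcnt2 0.023. No member's values were free of overlap, compared with 0.0679% of all genes.

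The interaction, the ELS effect in Fkbp5lox/lox mice minus that in Fkbp5Nex mice, asks whether stress acted differently by genotype. No member was called in edgeR (0% of all genes) or in DESeq2, and 4 members (7.02%) had an unadjusted p under 0.05, compared with 4.02% of all genes. Kcnt1 had a difference of 0.36 on the log2 scale (SE 0.11), made up of 0.26 in Fkbp5lox/lox and -0.10 in Fkbp5Nex mice. Kcnh4 had -0.96 (SE 0.33) and the GIRK subunit Kcnj9 -0.27 (SE 0.11), all with an adjusted p of 0.9995 in edgeR. For Kcnt1 the estimate was 0.16 without the 4 mice far from the others, and without surrogate variables it was 0.11 for Kcnt1, -0.04 for Kcnj9 and -0.50 for Kcnh4. The interaction is also where precision was lowest, as 43 of 57 members and 11933 of 16209 genes had a 95% interval within a 1.5-fold change.

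**Figure D3:**
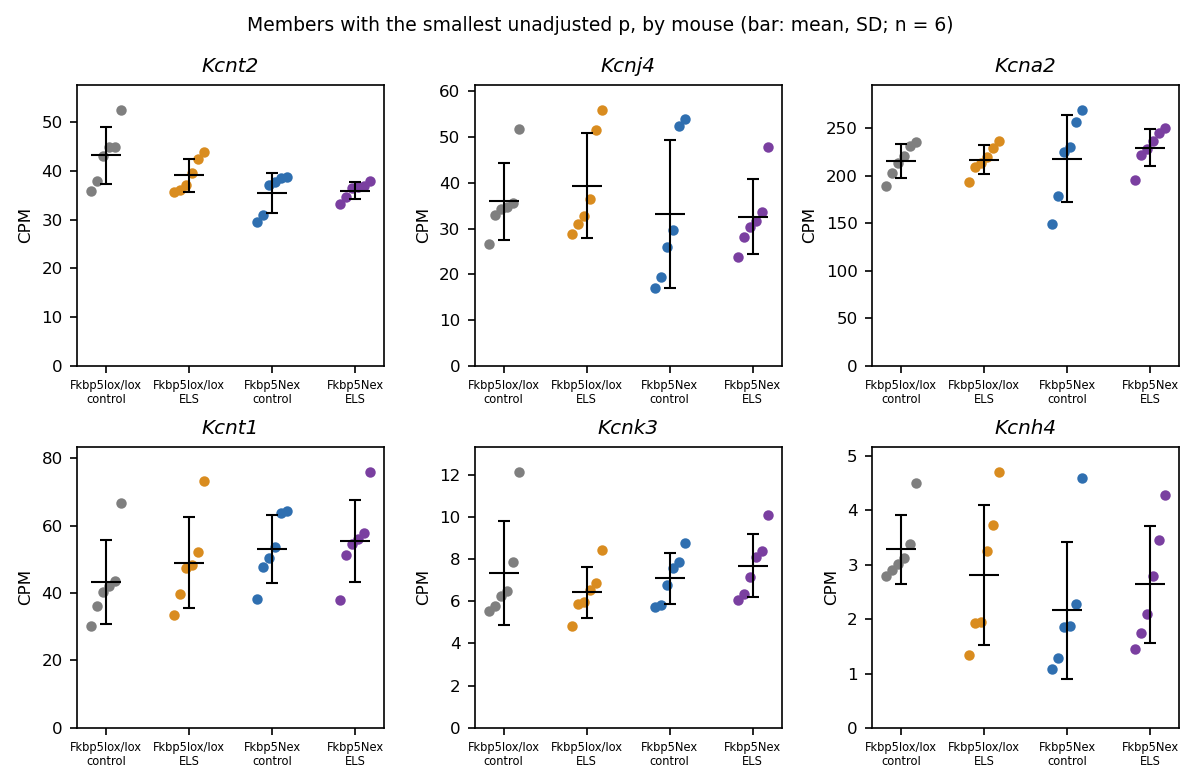
CPM of 6 members by mouse in the 4 groups (points; n = 6 each), with the mean and SD as bars. The groups overlap in every panel, no Fkbp5Nex mouse exceeds 38.8 CPM for Kcnt2, and single mice lie far above the rest for Kcnj4, Kcnt1 and Kcnk3 in the Fkbp5lox/lox control group.

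Auxiliary subunits and other channel genes outside the name pattern were examined in the same fits. Of 36 listed partners 30 were tested, and none was called for genotype, ELS or the interaction in edgeR or in DESeq2. The unadjusted p was under 0.05 for 3, 0 and 2 of them, or 10%, 0% and 6.67%, compared with 11.5%, 3.56% and 4.02% of all genes. The most abundant was Kcnab2, a beta subunit of Kv1 channels, at 382 TPM, before Kcnip2, a calcium sensor of Kv4 channels, at 234 TPM. For genotype, the silent Kv subunit Kcng1 gave a log2 fold change of -0.28 (SE 0.09, adjusted p = 0.251 in edgeR), Kcnma1 0.12 (SE 0.05) and Kcnip2 0.10 (SE 0.05). Kcnma1 gave 0.020 without surrogate variables and 0.015 without Fkbp5lox/lox control mouse 28, which also took Kcng1 to -0.17, and Kcnip2 gave 0.057 without Fkbp5lox/lox ELS mouse 72. For ELS, Abcc8, the sulfonylurea receptor of KATP channels, gave -0.15, the silent subunit Kcnv1 0.12 and the beta subunit Kcnab3 -0.14, each with an adjusted p of 0.9995 in edgeR. Without surrogate variables Abcc8 turned to 0.035 and Kcnab3 to 0.0020, and without Fkbp5lox/lox ELS mouse 72 they gave -0.075 and -0.085. For the interaction, Abcc9 gave 0.55 (SE 0.20), the BK subunit Kcnmb4 0.76 (SE 0.34) and the GABA-B receptor partner Kctd16 -0.45 (SE 0.22). Kcnmb4 was weakly expressed, with group means from 0.95 to 1.16 CPM. Without surrogate variables Abcc9 gave 0.30 and Kcnmb4 0.40, and without Fkbp5Nex control mouse 54 Kctd16 gave -0.28.

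Within groups, the levels of some members moved from mouse to mouse along with marker scores of regions and cells. Whether the make-up of the punches caused this was not tested. For each member the deviation of log2 CPM from the group mean was correlated with that of 11 marker scores over 24 mice (Pearson's r and Spearman's rho, permutation test within groups, adjusted over 178227 relations of all genes and lists). In all, 29 relations of 18 members passed an adjusted p of 0.02, with absolute r from 0.65 to 0.88, and for 18 of them rho passed as well. Of all genes, the share that passed for a list ran from 0.333% (thalamus) to 4.26% (dentate gyrus). No batch was given in the labels, so no relation was recomputed within batches.

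Dentate gyrus markers were related to 7 members, compared with 4.26% of all genes. Kcnj9, the GIRK3 subunit, had the closest relation, with r = 0.88 and rho = 0.81 (adjusted permutation p = 0.00446 and 0.00802). The 2 mice with the highest dentate score, Fkbp5lox/lox ELS 8 and Fkbp5Nex control 12, had 131 and 119 CPM, and the 2 with the lowest, Fkbp5Nex control 64 and 42, had 63.1 and 61.3. Kcnk2 (r = 0.79, rho = 0.74) and Kcnj4 (r = 0.78, rho = 0.78) came next, and Kcnc4, Kcna4 and Kcnj2 were positive as well. Kcnq5 had the opposite sign (r = -0.76, rho = -0.75), with 95.9 and 66.0 CPM in the former 2 mice and 208 and 216 in the latter. Without the 2 mice farthest from the median score these r fell to 0.74 for Kcnj9, 0.74 for Kcnk2, 0.71 for Kcnj4 and -0.60 for Kcnq5, and no member passed.

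Oligodendrocyte markers were also related to 7 members, compared with 3.75% of all genes. Kcnk13, a K2P channel (r = 0.83, rho = 0.87), and Kcnh2, the ERG1 channel (r = 0.83, rho = 0.80), led, each with an adjusted permutation p of 0.00308 for r. Kcnk13 stood at 10.2 CPM in Fkbp5Nex control 42, the mouse with the highest score, and at 5.03 in Fkbp5lox/lox control 44, the mouse with the lowest. Kcnc2, Kcnk4 and Kcnq5 were positive too, while Kcnj4 (r = -0.80, rho = -0.83) and Kcnh3 were negative. Without the 2 farthest mice Kcnh2 kept r = 0.90 and Kcnk13 r = 0.82, both past the threshold, whereas Kcnj4 had -0.77 and did not pass. Without the 4 mice far from the others Kcnk13 (0.88) and Kcnj4 (-0.74) passed. The same members recur under choroid plexus markers, to which Kcnj4 (r = -0.78, rho = -0.79), Kcnj9 (r = -0.75, rho = -0.77), Kcnk2 and Kcnc4 were negatively and Kcnk4 (r = 0.71, rho = 0.67) positively related, compared with 2.91% of all genes. Without the 2 farthest mice the first 2 had -0.74 and -0.77, Kcnk4 had 0.67, and none passed. Scores share punches, so these relations are not separate from each other.

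**Figure D4:**
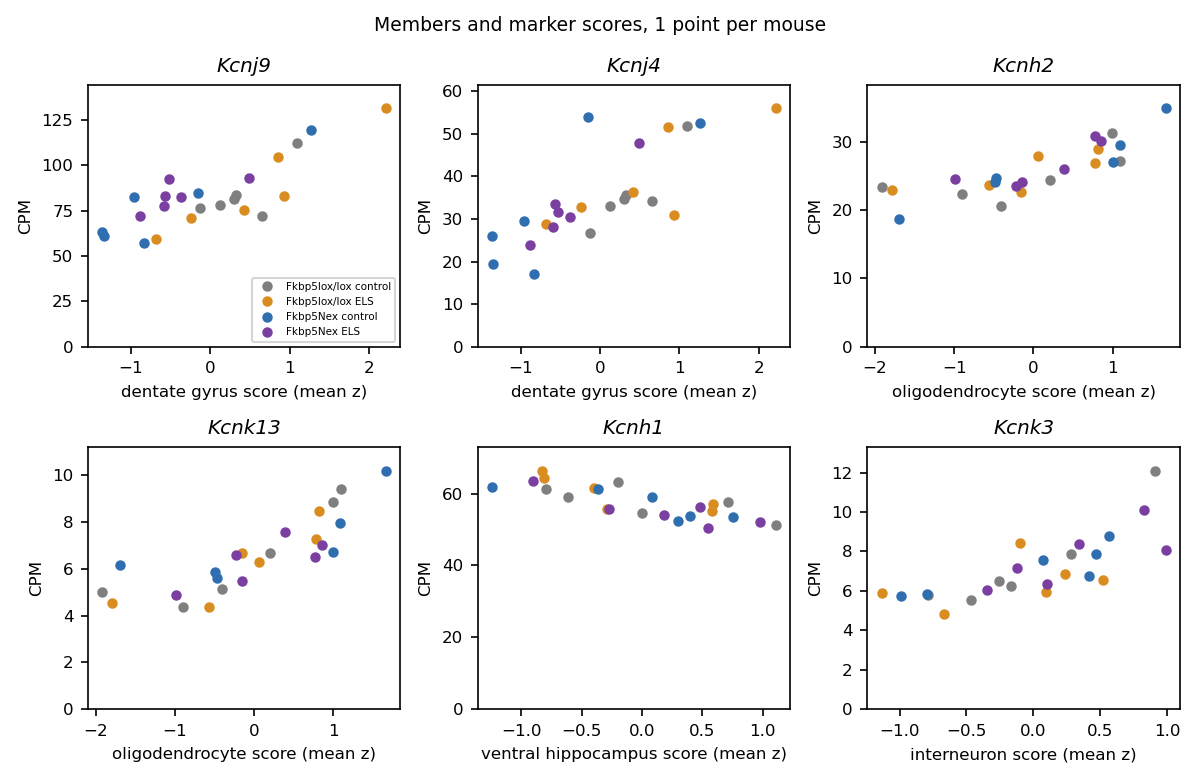
CPM of a member against a marker score (mean z over the list) for 6 pairs, 1 point per mouse, coloured by group. Kcnj9 and Kcnj4 rise with the dentate gyrus score, Kcnh2 and Kcnk13 with the oligodendrocyte score and Kcnk3 with the interneuron score, and Kcnh1 falls with the ventral hippocampus score.

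Ventral hippocampus markers were related to 3 members, compared with 1.26% of all genes: Kcnh1, the EAG1 channel (r = -0.81, rho = -0.79), Kcnt1 (r = 0.79, rho = 0.76) and the silent subunit Kcns2 (r = -0.71, rho = -0.73). Kcnt1 stood at 66.7 and 75.8 CPM in the 2 mice with the highest score and at 38.3 and 37.8 in the 2 with the lowest. Kcnh1 varied little, with 51.2 and 52.2 CPM against 62.0 and 63.6 in these mice, but did so along with the score. Without the 2 farthest mice r was -0.76, 0.70 and -0.65, and none passed. Interneuron markers gave 4 members, compared with 0.864% of all genes: Kcnh1 (r = -0.79, rho = -0.81), Kcnk3 (r = 0.77, rho = 0.78), Kcns2 (r = -0.74, rho = -0.75) and Kcnt1 (r = 0.71, rho = 0.72). Kcnk3 alone passed without the 2 farthest mice, with r = 0.80. Without them Kcnh1 had -0.74, Kcns2 -0.66 and Kcnt1 0.62.

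The remaining lists gave few relations. Kcns3 followed CA1 pyramidal markers (r = 0.75, rho = 0.67, 0.586% of all genes), with r = 0.55 and no call without the 2 farthest mice, when Kcnh3 passed instead (r = 0.91, named after its value was seen). Kcnj12 followed thalamus markers (r = 0.69, rho = 0.70, 0.333% of all genes) and Kcnk2 astrocyte markers (r = 0.74, rho = 0.75, 2.36% of all genes), and without the 2 farthest mice both had r = 0.61 and did not pass. No member passed for CA2 and CA3 markers (1.48% of all genes), for microglia (1.62%) or for endothelial and mural cells (0.432%). Leaving out the 4 mice kept the sign of all 29 relations, with absolute r from 0.40 to 0.88, but only 2 of them still passed. Fewer mice entered there, and the share of all genes that still passed is not given here.

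**Figure D5:**
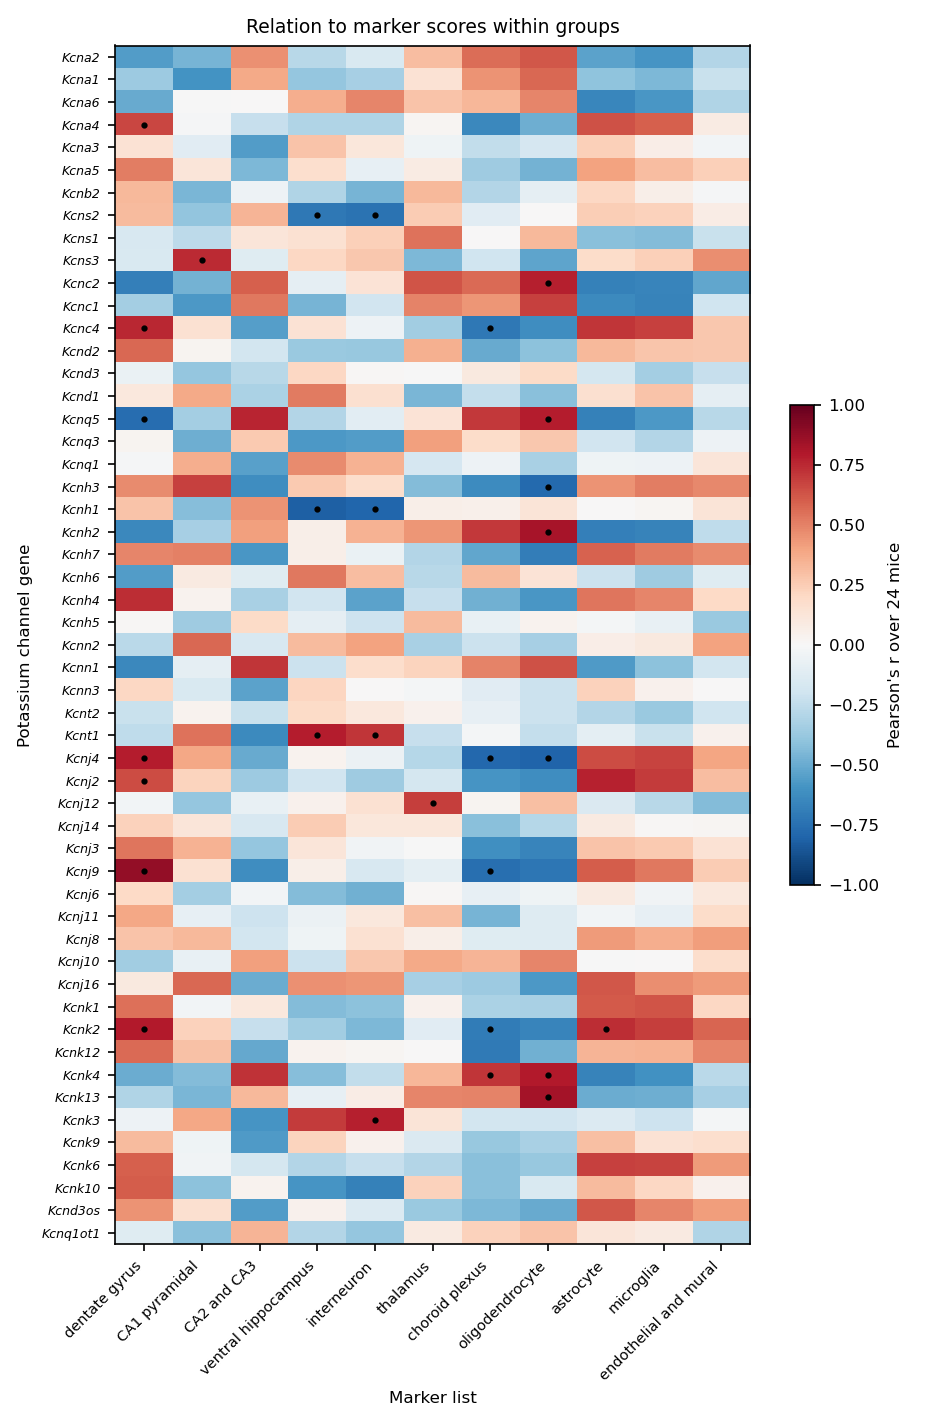
Pearson's r, over 24 mice and within groups, between 53 members (rows, by class) and each marker score (columns); black dots mark an adjusted permutation p under 0.02. Kcnj4, Kcnj9, Kcnk2 and Kcnc4 are positive for the dentate gyrus and negative for the choroid plexus and oligodendrocyte lists, and Kcnt1 and Kcnk3 are positive for the ventral hippocampus and interneuron lists.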

How the data were processed

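Hippocampus punches of 24 female mice were sequenced, 1 library per mouse and 6 per group. The deposited values are raw counts of reads per gene, made by the authors' sequencing provider. Per the study's methods and the submitters' processing notes, reads with adaptors, unknown bases or low quality were removed, the rest aligned with HISAT2 2.0.5 and counted with featureCounts 1.5.0-p3. Genome build, annotation, strand setting and handling of multi-mapped reads were not given in the sources used here. The study removed 1 sample as an outlier, which is not identified here, so all 24 were kept.

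Analyses ran in R 4.3.3 (edgeR 4.0.16, sva 3.50.0, DESeq2 1.42.0, limma 3.58.1) and Python 3.11.15 (numpy 2.4.6, scipy 1.17.1, pandas 2.3.3, matplotlib 3.10.9). Genes counted 10 or more times in each mouse of 1 or more groups were tested with edgeR's quasi-likelihood test on TMM-scaled counts, with 4 group means and 5 surrogate variables (svaseq), adjusted after Benjamini-Hochberg over 16209 genes at an FDR of 0.02, the level the study used with DESeq2. Standard errors came from the fold change and its F statistic. CPM are TMM-scaled. TPM used the union of exons of GENCODE vM21 (GRCm38), matched by Ensembl identifier for all 57 members, since lengths were not given with the counts and may differ from those counted over. Sequences came from the same annotation and genome. Marker scores are mean z of log2 CPM with a prior count of 2, and relations used 100000 permutations within groups, 2-sided. Replicate libraries differed beyond counting noise in all 60 pairs within groups. In data simulated for the 16209 genes, 100 of 100 genes changed by 1 on the log2 scale and 85 of 100 changed by 0.5 were recovered for genotype, and 97 and 69 for ELS in Fkbp5lox/lox mice. The simulated counts took the spread left after surrogate variables and carried no hidden factors. They needed 0 surrogate variables, so recovery can be lower in the real data. Only genes above a minimum mean count were changed, so recovery of weakly counted members was not measured.

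Named genes were those past the threshold, the 3 with the smallest p per comparison, the 2 with the highest TPM per class, the 3 with the highest absolute r per marker list past its threshold, and, of the partner genes, the 3 with the smallest p for genotype, ELS and the interaction. Values of 4 members are not reported here, and they count only in totals. The members, lists and comparisons were chosen with earlier results of these data known. Alternatives were DESeq2, other scaling, filters and an FDR of 0.05, no surrogate variables, fits of only the 12 mice compared, and leaving out mice.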

Additional observations from a re-analysis of the deposited data

Results flagged for a closer look

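In 144 groups of 6 mice (36 named members in 4 groups), 16 values lay so far from the other 5 that Dixon's ratio passed its 95% critical value. Chance flags about 1 in 20 independent groups, but these groups share mice, and the members were named by their values in these data. The rate over all genes is not given here, so the 16 cannot be read as a trait of the channels. Of the 16 values, 6 belonged to Fkbp5lox/lox control mouse 44: Kcnj4 at 51.7 CPM against 26.6 to 35.6 in the other 5 mice, Kcnk3 at 12.1 against 5.55 to 7.88, Kcnj9 at 112 against 71.8 to 83.7, Kcnt1 at 66.7 against 30.3 to 43.6, Kcnh3 at 73.6 against 49.3 to 57.2, and Kcnq5, which was low, at 65.8 against 145 to 185. This mouse had the lowest oligodendrocyte score (-1.92) and the lowest CA2 and CA3 score (-1.54) of all 24, and the part of these in the values was not tested. Fkbp5Nex control 12, which had the highest astrocyte (2.74) and microglia (2.42) scores, was high for Kcnj2 (21.3 CPM against 4.86 to 8.64) and Kcnh4 (4.59 against 1.081 to 2.28) and low for Kcnn1 (15.4 against 20.5 to 22.9).

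Fkbp5lox/lox ELS 8, the mouse with the highest dentate gyrus (2.22) and the lowest CA1 score (-2.72), was high for Kcnc4 (90.4 CPM against 56.7 to 67.5) and Kcnb2 (32.1 against 23.2 to 26.1). Fkbp5lox/lox ELS 68 was low for Kcna1 (58.6 against 78.2 to 87.8) and high for Kcnh3 (78.2 against 52.1 to 61.6). Fkbp5Nex control 52 was low for Kcnd3 (103 against 141 to 157) and Kcnb2 (15.1 against 20.7 to 23.0). Kcnh4 was high in Fkbp5lox/lox control 74 (4.50 against 2.79 to 3.38).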

How the results depend on the processing

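No member was called in any of the 7 comparisons with no or another filter, DESeq2 size factors, no surrogate variables, only the 12 mice compared (for the 4 comparisons within a genotype or rearing), or without the 4 mice far from the others, an alternative chosen after seeing the data. For genotype 1 member, Kcnt2, was called at an FDR of 0.05, by DESeq2 and without Fkbp5Nex control 42, so that leaving out 1 mouse in turn gave 0 to 1. For genotype in control-reared mice DESeq2 called 1 (Kcnt1). DESeq2 called 70 of 16209 genes for genotype and 53 for genotype in control-reared mice, against 19 and 8 in edgeR. Of 30 estimates for named members and partners, 4 changed sign without surrogate variables (Kcnj4 -0.025 and Kcnt2 0.023 for ELS in Fkbp5Nex, Kcnab3 0.0020 and Abcc8 0.035 for ELS) and 1 without the 4 mice (Kcnt1 -0.040 for genotype in control), the cause of which was not tested, and none changed sign when 1 mouse was left out, although sizes moved (Kcnma1 for genotype from 0.12 to 0.015 without Fkbp5lox/lox control 28, Kcnk3 for ELS in Fkbp5lox/lox from -0.29 to -0.15 without control 30). The 5 surrogate variables shared 2.97% to 23.997% of their variance with the groups. Without the 2 farthest mice per marker list, members related to it numbered 0 for thalamus, dentate gyrus, ventral hippocampus, choroid plexus and astrocyte. They numbered 1 for interneuron, 1 for CA1 pyramidal and 3 for oligodendrocyte, of which 3 relations in all were among the 29. Without the 4 mice they numbered 0 for thalamus, dentate gyrus, ventral hippocampus, interneuron, choroid plexus and astrocyte. They numbered 2 for oligodendrocyte and 1 for CA1 pyramidal, the latter not among the 29. Fewer mice entered both of these settings, and the shares of all genes that passed in them are not given here. With DESeq2 size factors 0 followed CA1 markers. No mouse number occurs in more than 1 group. Pairing littermates was not possible either, because litters were not named in the labels. Members near 10 counts carry large counting error, and a missing call there does not show that nothing differed.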
